A study of Mus musculus with 8 samples.

Results

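Expression of 39 interferon-stimulated antiviral genes was followed in RNA flushed from the thoracic aortic endothelium of 8 mice. The genes were chosen by name, and 37 of the 39 had a probe set that the array's annotation pairs with that symbol alone, among 30063 genes so named in all. Ifi44 was not listed in that annotation, and the probe set of Ifi27 carried several symbols, so both were left out. Of the 37 genes, 33 lay above the level filter and were tested among 16232 genes, and each of the 33 also lay above that filter in both group means. Mx1, Oas2, Oas3 and Oasl1 lay below it on average.

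The mice were females positive for Cdh5-CreERT2, a recombinase that tamoxifen activates in endothelial cells, with both Mef2c alleles floxed (Mef2c f/f). Starting at 10 weeks of age, 4 mice (EKO) were given tamoxifen on 5 days in a row to delete Mef2c in endothelium. Their 4 control littermates were given the solvent alone, sunflower seed oil with 10% ethanol. Aortas were taken on day 14 after the first injection, and each array holds the RNA of 1 aorta. Controls thus carried the same recombinase and floxed alleles but had no tamoxifen, so the drug and the deletion cannot be told apart. Values are log2 expression levels, so a difference of 1 is a doubling, and a level can be compared between arrays but not between genes. In the flushed RNA, fewer cells of a type and less RNA per cell cannot be told apart.

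The arrays were alike in overall signal, with medians over the tested genes of 8.43 to 8.53 and pairwise correlations across genes of 0.981 to 0.993. The endothelial genes Pecam1 and Cdh5, for a platelet-endothelial adhesion molecule and VE-cadherin, read 18.07 to 18.23 and 16.23 to 16.52 over the 8 arrays. The targeted gene Mef2c read 9.62, 9.79, 9.88 and 9.80 on control arrays 1 to 4 and 9.56, 9.73, 9.66 and 10.03 on EKO arrays 1 to 4, so the groups overlapped. Its single probe set summarises the whole transcript cluster and cannot check the deletion.

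Type I interferons bind a receptor made of IFNAR1 and IFNAR2, whose kinases JAK1 and TYK2 activate transcription factors inside the cell. STAT2 and IRF9 are parts of the complex ISGF3 formed then, which binds an interferon-stimulated response element in the promoters of antiviral genes. Interferon gamma acts through a different site, the gamma-activated sequence. The induced proteins sense foreign nucleic acid, block translation, cut or starve viral RNA and DNA, or tag proteins with the ubiquitin-like ISG15. Endothelial cells carry both receptors and respond to both kinds of interferon.

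Promoter windows show how the response element looks in the genes whose values follow. RefSeq windows of build GRCm38.p6, from 250 bases before to 50 bases after the transcript start, were matched by symbol for 29 of the 39 genes. The motif searched was GAAA, any bases NN, and GAAA again, on both strands (TTTC, NN and TTTC on the opposite strand), and overlapping matches were each counted. It was present in 12 of the 29 genes with a window (41.4%) and in 3.99% of 27025 genes with a window. The 12 were Bst2, Ddx58, Ddx60, Eif2ak2, Ifih1, Ifit1, Ifit3, Isg15, Oas1a, Oas3, Rsad2 and Stat2. The windows printed here belong to the 4 tested genes with the smallest unadjusted p among those with a match, and to Xaf1, which has the smallest p among those without. They are written in the direction of transcription, with the matches in capitals.
Ifit1 (chr19:34640639-34640938, plus strand): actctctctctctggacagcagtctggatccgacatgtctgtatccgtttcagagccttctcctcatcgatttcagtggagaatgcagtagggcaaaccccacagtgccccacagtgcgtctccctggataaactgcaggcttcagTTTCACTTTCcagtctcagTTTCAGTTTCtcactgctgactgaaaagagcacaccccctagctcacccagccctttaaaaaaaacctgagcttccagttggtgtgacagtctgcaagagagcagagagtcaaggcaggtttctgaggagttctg
Ifit3 (chr19:34583279-34583578, plus strand): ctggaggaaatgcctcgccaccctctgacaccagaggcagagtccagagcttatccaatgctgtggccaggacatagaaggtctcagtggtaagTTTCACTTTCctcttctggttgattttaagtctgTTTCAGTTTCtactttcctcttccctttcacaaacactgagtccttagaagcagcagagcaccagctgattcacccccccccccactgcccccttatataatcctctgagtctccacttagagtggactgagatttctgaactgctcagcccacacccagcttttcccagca
Isg15 (chr4:156200769-156201068, minus strand): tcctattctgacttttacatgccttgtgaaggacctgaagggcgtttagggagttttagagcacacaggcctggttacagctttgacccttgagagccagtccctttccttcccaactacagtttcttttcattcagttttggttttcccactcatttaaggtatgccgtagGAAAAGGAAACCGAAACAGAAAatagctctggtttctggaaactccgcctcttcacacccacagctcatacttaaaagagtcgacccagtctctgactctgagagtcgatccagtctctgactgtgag
Rsad2 (chr12:26456403-26456702, minus strand): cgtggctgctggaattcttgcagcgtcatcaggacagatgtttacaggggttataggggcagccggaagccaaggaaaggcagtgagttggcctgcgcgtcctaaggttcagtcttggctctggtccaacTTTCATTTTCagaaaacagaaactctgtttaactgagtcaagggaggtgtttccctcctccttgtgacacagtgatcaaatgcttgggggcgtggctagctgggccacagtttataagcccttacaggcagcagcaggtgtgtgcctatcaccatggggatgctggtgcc
Xaf1 (chr11:72301379-72301678, plus strand): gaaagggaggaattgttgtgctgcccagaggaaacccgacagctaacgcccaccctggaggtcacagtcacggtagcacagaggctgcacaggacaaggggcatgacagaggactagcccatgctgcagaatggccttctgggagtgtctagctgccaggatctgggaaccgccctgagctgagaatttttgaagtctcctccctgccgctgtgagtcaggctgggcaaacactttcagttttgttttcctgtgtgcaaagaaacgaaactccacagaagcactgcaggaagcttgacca
Ifit1 and Ifit3 share the same pair of matches, TTTCACTTTC and then TTTCAGTTTC. In Ifit1 they lie from 104 to 95 and from 85 to 76 bases before the transcript start, and in Ifit3 from 156 to 147 and from 122 to 113. Isg15 holds 3 overlapping matches that run from 78 to 57 bases before the start. The gamma-activated motif TTCNNNGAA, which reads the same on both strands, was in 8 of the 29 genes (27.6%) and in 9.55% of all genes with a window. It was found in Bst2, Eif2ak2, Ifi35, Ifit2, Irf1, Isg20, Oas1a and Samhd1. The differences described next had a median of 0.19 in the 11 tested genes with the repeated GAAA motif and of 0.19 in the 15 tested genes with a window but no match. A match in letters is not a binding site, and a window without one says only that those letters are absent there.

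Most antiviral genes read higher in EKO than in control aortas, by small amounts, and no difference passed the threshold. The difference between group means, EKO minus control, was above 0 in 29 of the 33 tested genes (87.9%), where it was above 0 in 44.9% of all genes tested. Its median was 0.19 on the log2 scale over the 33 genes and -0.02 over all genes tested. With limma and Benjamini-Hochberg adjustment over all genes, 0 of the 33 passed an adjusted p of 0.05, as did 0% of all genes tested, and the smallest adjusted p among the 33 was 0.527. At an unadjusted p under 0.05, 6 of the 33 were higher and 0 lower, where 5.42% of all genes were higher and 3.51% lower. The 6 were Ifit1, Ifit3, Usp18, Zbp1, Parp14 and Xaf1. In 5 of these 6, all but Xaf1, each EKO array lay above each control array, which held for 3.41% of all genes tested. In the opposite direction no antiviral gene separated the groups, against 2.67% of all genes. Of the 33 genes, 4 (Usp18, Zbp1, Mx2 and Irf7) had a mean over the 8 arrays below the lowest of the arrays' negative control medians (7.335 to 7.446). Their levels were not above background by that measure, and the sizes of their differences are uncertain. The control means of Ifit1 (7.20), Isg15 (7.32) and Rtp4 (7.28) also lay below it, so the sizes of their differences are uncertain too. The negative control medians themselves lay above the level filter of 6.14. The 95th percentile of the negative control probe sets was 11.49 to 11.84 over the arrays, above the means of most of the 33 genes. A level above the negative control medians is therefore no proof that a gene is clear of background.

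A single aorta, on EKO array 2, carried much of this difference. It held the highest of the 8 values in 27 of the 33 genes (81.8%), and EKO array 2 was the highest array for 15.4% of all genes tested. The same array was lowest for 22.6% of all genes tested (8.78% to 13.6% on the other arrays) and for 0 of the 33. On this array 28 of the 33 genes lay above all 4 control arrays and 0 below them. EKO array 4 lay above all control arrays in 18 genes and below them in 1. The other two went both ways, EKO array 1 lying above in 10 genes and below in 6, and EKO array 3 above in 10 and below in 5. Measured against each gene's control mean, the median over the 33 genes was 0.49 on EKO array 2, 0.21 on EKO array 4, 0.06 on EKO array 1 and 0.02 on EKO array 3. Control arrays lay between -0.02 and 0.03. Without EKO array 2 the median over all 33 genes was 0.09, and 24 of them were above 0, against 47.8% of all genes. The same 5 genes still separated the groups, as 4.32% of all genes did with 3 EKO arrays. At an unadjusted p under 0.05, 5 antiviral genes were higher, against 3.88% of all genes.

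**Figure D1:**
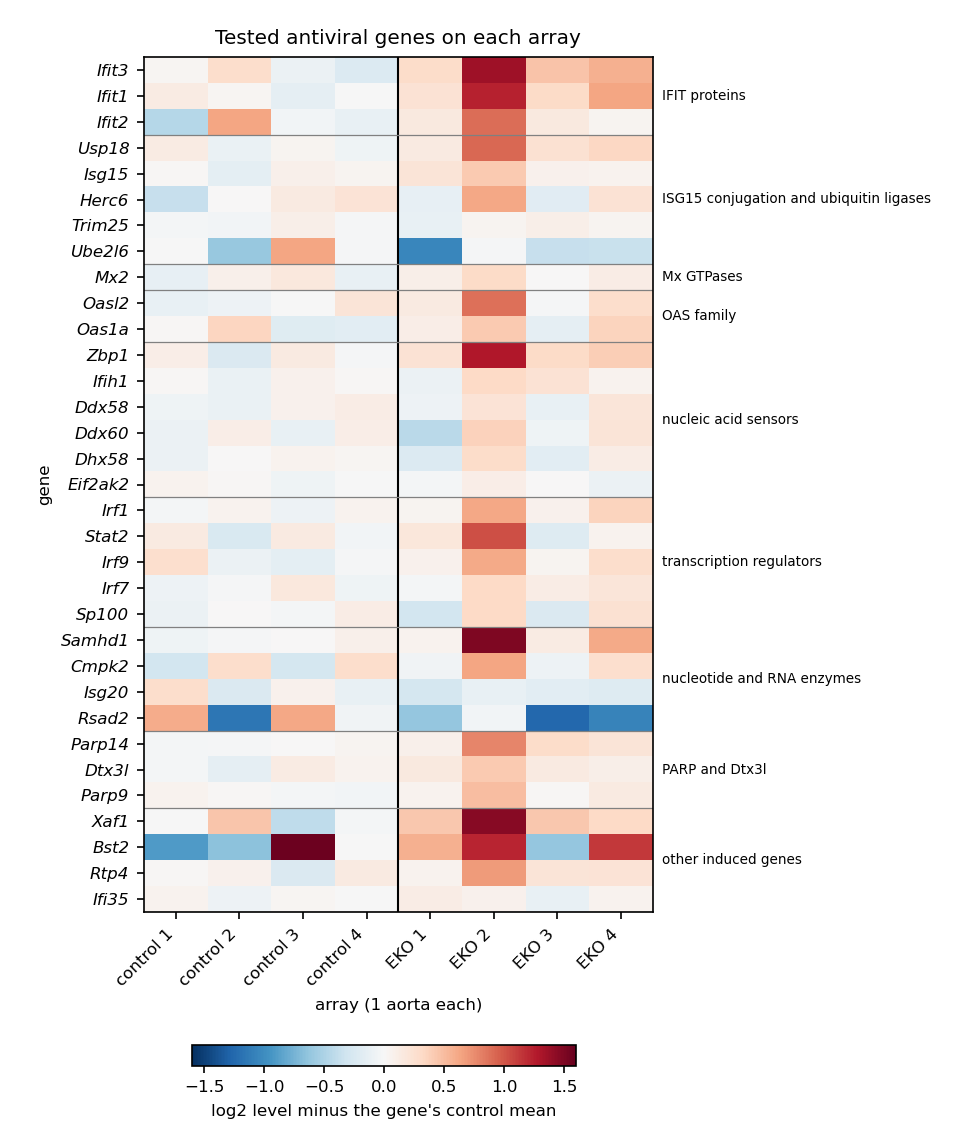
Each row is 1 of the 33 tested antiviral genes, grouped by role, and each column 1 array. The colour gives the log2 level minus that gene's mean over the 4 control arrays, with red above and blue below. EKO array 2 is red in nearly every row, with a median of 0.49, while Rsad2, Ube2l6 and Isg20 are blue on most EKO arrays.

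The IFIT proteins, which bind viral RNA and block its translation, had the largest median difference of the 9 roles, at 0.60. Ifit1 read 7.33, 7.23, 7.06 and 7.20 on control arrays 1 to 4 and 7.44, 8.44, 7.52 and 7.84 on EKO arrays 1 to 4. All EKO arrays lay above all controls, with array 2 highest and array 4 next. The mean level of the control group was 7.20 ± 0.11 and that of the EKO group 7.81 ± 0.45 (SD, n = 4 each). The difference for Ifit1 was 0.60 (95% interval from 0.14 to 1.07, SE 0.20, limma adjusted p = 0.527), a 1.52-fold level. All 4 control values of Ifit1 lay below the negative control medians (7.335 to 7.446), so the size of this difference is uncertain. Ifit3 read 8.55, 8.81, 8.43 and 8.30 on the control arrays and 8.81, 9.88, 8.98 and 9.09 on the EKO arrays. The groups again did not overlap, although EKO array 1 lay only just above control array 2. Its difference was 0.67 (95% interval from 0.15 to 1.18, SE 0.23, limma adjusted p = 0.527), or 1.59-fold. Without EKO array 2 the differences were 0.39 for Ifit1 and 0.44 for Ifit3. Ifit2, whose gene is a neighbour of both, ranged from 8.001 to 9.09 in control and from 8.50 to 9.35 in EKO arrays. Control array 2 was high for Ifit2 (9.09), so the groups overlapped and the difference was 0.31 (SE 0.26, limma adjusted p = 0.699).

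Usp18 removes ISG15 from proteins and restrains signalling at the interferon receptor. It read 6.35, 6.12, 6.27 and 6.16 on control arrays and 6.36, 7.15, 6.47 and 6.56 on EKO arrays, without overlap, though EKO array 1 lay only just above control array 1. All 8 values lay below the negative control medians. The difference was 0.41 (95% interval from 0.04 to 0.78, SE 0.16, limma adjusted p = 0.549), and 0.24 without EKO array 2. The unadjusted p of Usp18 was 0.0343. Isg15 itself read 7.35, 7.17, 7.40 and 7.37 on control and 7.53, 7.74, 7.39 and 7.38 on EKO arrays. EKO arrays 1 and 2 lay above all controls, and EKO arrays 3 and 4 within their range. Its difference was 0.19 (SE 0.10, limma adjusted p = 0.601). Herc6, the main ligase that attaches ISG15 in mice, differed by 0.13, which turned to -0.03 without EKO array 2. Trim25, a ubiquitin ligase that activates the RNA sensor RIG-I, differed by 0.02 and spanned only 11.04 to 11.26 over the 8 arrays. Ube2l6, the conjugating enzyme for ISG15, went the other way and is described with Rsad2.

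The Mx GTPases, which trap viral nucleocapsids, and the OAS enzymes, which activate RNase L, had overlapping groups in each of the 3 genes tested. Mx2 ranged from 6.47 to 6.77 in control and from 6.61 to 6.90 in EKO arrays, a difference of 0.13 (SE 0.10, limma adjusted p = 0.679), with all 8 values below the negative control medians. Oasl2 read 7.92, 7.95, 8.03 and 8.24 on control and 8.17, 8.92, 8.01 and 8.31 on EKO arrays. Only EKO arrays 2 and 4 lay above all controls for Oasl2, and the difference was 0.32 (SE 0.19, limma adjusted p = 0.62). Oas1a differed by 0.19 (limma adjusted p = 0.708). The untested Mx1, Oas2, Oas3 and Oasl1 read between 5.14 and 5.97 on all arrays, and all 4 were highest on EKO array 2. Their differences were 0.20, -0.01, 0.15 and 0.11, on levels too low to be tested here.

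Among the sensors of foreign nucleic acid, Zbp1 had the largest fitted difference, from levels near background. Zbp1, which binds Z-form nucleic acid and can trigger necroptosis, read 6.48, 6.14, 6.53 and 6.36 on control and 6.61, 7.66, 6.68 and 6.77 on EKO arrays. Every EKO array lay above every control, and array 2 stood far above the other 3. Only the value on EKO array 2 was above the negative control medians. The difference was 0.56 (95% interval from 0.04 to 1.07, SE 0.23, limma adjusted p = 0.55), and 0.31 without EKO array 2. The helicases that detect viral RNA differed little. Ddx58, which encodes RIG-I, differed by 0.05, Ifih1, which encodes MDA5, by 0.13, and Dhx58, which encodes their regulator LGP2, by 0.01. Ddx60 differed by 0.02, and Eif2ak2, the kinase PKR that halts translation, by -0.004. All of these 5 had EKO array 2 as their highest array, and without it Ddx58, Ddx60 and Dhx58 turned to -0.001, -0.10 and -0.09.

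Parp14, Parp9 and Dtx3l form a group of ADP-ribosyltransferases and a ubiquitin ligase that support interferon signalling. Parp14 read 9.93, 9.94, 9.96 and 10.01 on control and 10.04, 10.74, 10.26 and 10.17 on EKO arrays. The control arrays lay within a narrow band and all EKO arrays above it. The difference was 0.34 (95% interval from 0.03 to 0.66, SE 0.14, limma adjusted p = 0.55), and 0.20 without EKO array 2. Dtx3l read 8.16, 8.05, 8.32 and 8.25 on control and 8.35, 8.61, 8.34 and 8.28 on EKO arrays, overlapping only through EKO array 4. Its difference was 0.20 (SE 0.10, limma adjusted p = 0.577). Parp9, which pairs with Dtx3l as a complex, differed by 0.18 (SE 0.11, limma adjusted p = 0.626) and ranged from 8.11 to 8.20 in control and from 8.17 to 8.64 in EKO arrays.

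**Figure D2:**
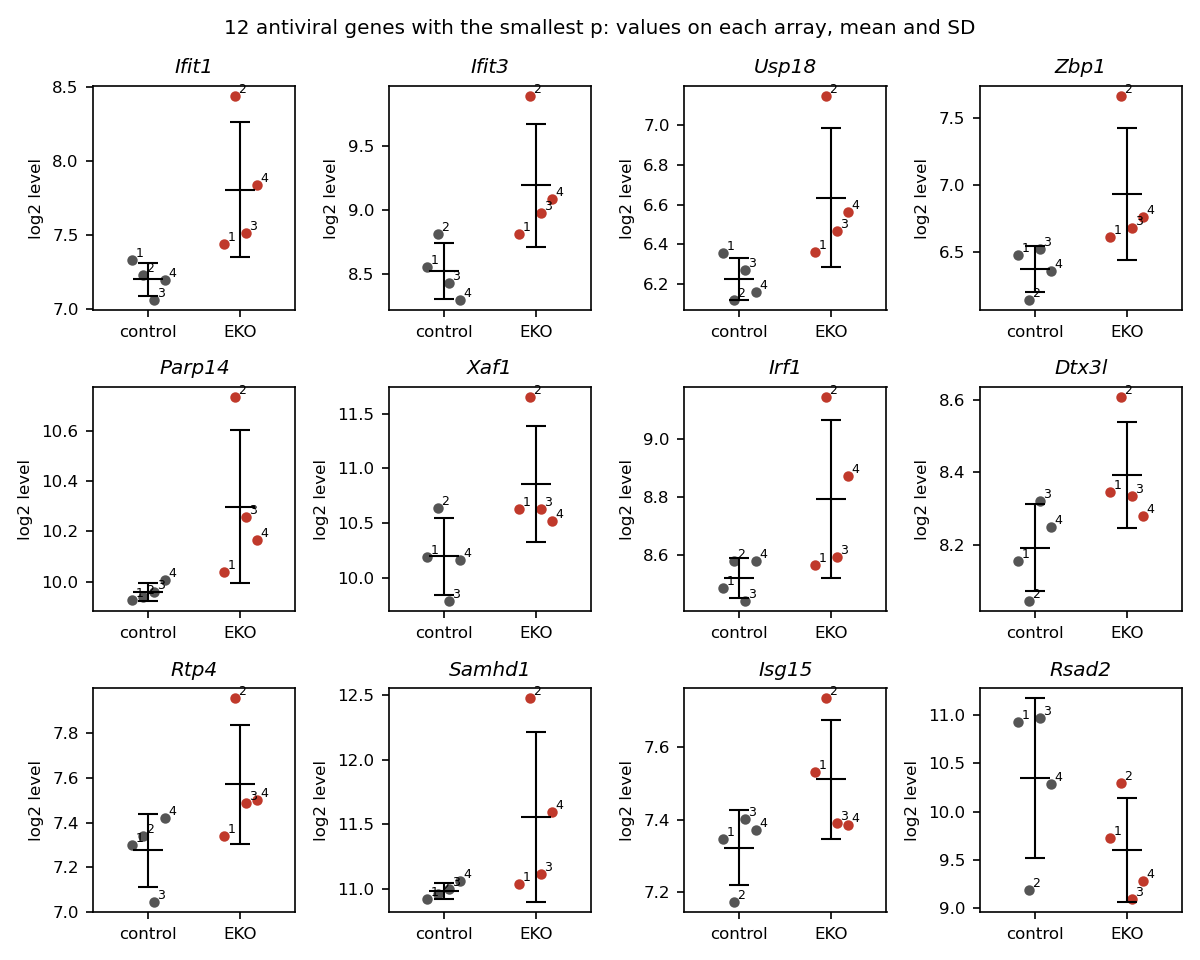
Log2 levels of the 12 tested antiviral genes with the smallest unadjusted p, 1 panel per gene with its own vertical scale. Points are arrays, numbered by replicate, grey for control and red for EKO, and the bars give the mean and SD. EKO array 2 is the highest EKO array in every panel, and in Ifit1, Ifit3, Usp18, Zbp1 and Parp14 the groups do not overlap.

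The transcription regulators that carry the interferon signal were each slightly higher on average, most of all on EKO array 2. Irf1, induced mainly by interferon gamma, read 8.49, 8.58, 8.44 and 8.58 on control and 8.57, 9.14, 8.59 and 8.87 on EKO arrays. EKO arrays 2 and 4 stood above the controls, and EKO array 3 only just. The difference was 0.27 (SE 0.13, limma adjusted p = 0.577). Irf1 has more than 1 probe set, and with their mean in place of the brightest one the difference was 0.009. Stat2 read 10.21, 9.81, 10.20 and 10.02 on control and 10.24, 11.09, 9.86 and 10.12 on EKO arrays, so that array 2 alone was well above the controls. Its difference was 0.26 (SE 0.24, limma adjusted p = 0.734), and 0.01 without EKO array 2. Irf9, a DNA-binding partner of STAT2, read 8.99, 8.61, 8.56 and 8.69 on control and 8.78, 9.31, 8.76 and 8.99 on EKO arrays. Control array 1 was about as high as EKO array 4, and the difference was 0.25 (SE 0.14, limma adjusted p = 0.621). Irf7, the factor that amplifies type I interferon production, read 6.99, 7.06, 7.25 and 7.003 on control and 7.04, 7.39, 7.20 and 7.27 on EKO arrays. EKO arrays 2 and 4 lay above all controls, and the difference was 0.15 (SE 0.10, limma adjusted p = 0.636), on levels whose mean was below the negative control medians. Sp100, a nuclear body protein, differed by 0.01 and by -0.09 without EKO array 2.

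Enzymes that act on nucleotides and RNA were split. Samhd1, which depletes the nucleotides needed for viral DNA synthesis, read 10.92, 10.96, 10.998 and 11.06 on control and 11.04, 12.48, 11.12 and 11.60 on EKO arrays. The controls were close together, EKO array 2 was 12.48 and EKO array 4 was next. The difference was 0.57 (95% interval from -0.07 to 1.22, SE 0.28, limma adjusted p = 0.587), and 0.27 without EKO array 2. Cmpk2, a mitochondrial nucleotide kinase next to Rsad2 in the genome, differed by 0.19 (SE 0.20, limma adjusted p = 0.771).

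Rsad2, Ube2l6 and Isg20 were lower on average in EKO aortas and varied in a different way. Rsad2 encodes viperin, which makes a chain-terminating nucleotide. It read 10.94, 9.19, 10.97 and 10.29 on control and 9.72, 10.30, 9.09 and 9.27 on EKO arrays. Control arrays 1 and 3 were highest and control array 2 was among the lowest, so the groups overlapped. The difference was -0.75 (95% interval from -1.70 to 0.21, SE 0.42, limma adjusted p = 0.615). Ube2l6 read 10.87, 10.27, 11.51 and 10.86 on control and 9.83, 10.86, 10.50 and 10.52 on EKO arrays, highest on control array 3 and lowest on EKO array 1. Its difference was -0.45 (SE 0.28, limma adjusted p = 0.636). The exonuclease gene Isg20 read 9.13, 8.63, 8.92 and 8.74 on control and 8.57, 8.74, 8.69 and 8.65 on EKO arrays, for a difference of -0.19 (SE 0.11, limma adjusted p = 0.621). Alas2, the first enzyme of haem synthesis in red cell precursors, is set beside them, and was chosen after its values were seen. Alas2 read 14.80, 13.34, 15.15 and 14.34 on control and 12.94, 13.56, 13.58 and 13.43 on EKO arrays, highest on control array 3, as Rsad2 and Ube2l6 were, and lowest on EKO array 1, as Ube2l6 and Isg20 were. Its unadjusted p was 0.0195 and its limma adjusted p was 0.528. Its part in the values of Rsad2, Ube2l6 and Isg20 was not tested.

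**Figure D3:**
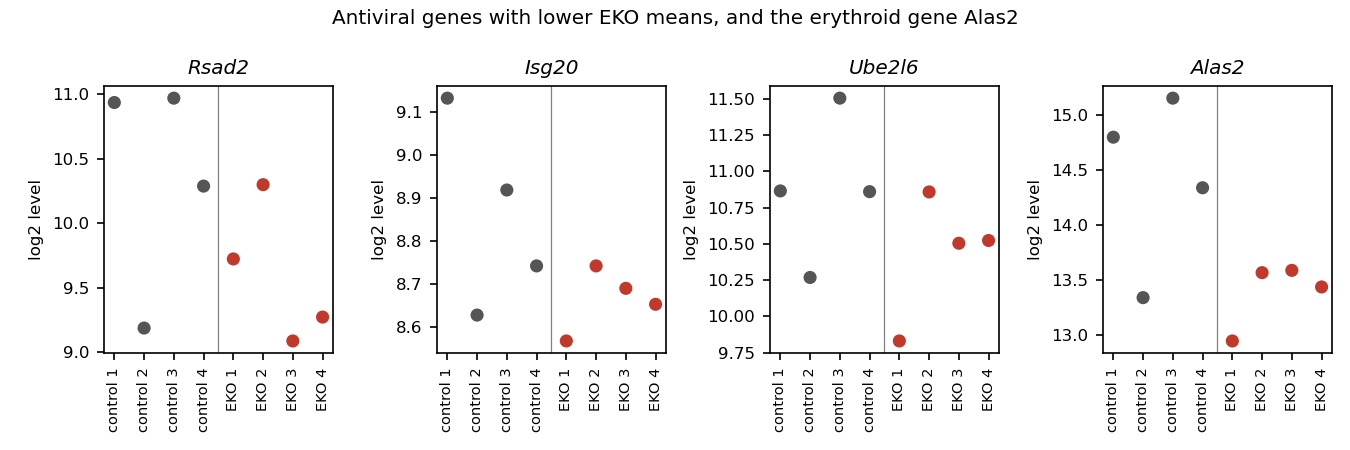
Log2 levels of Rsad2, Isg20, Ube2l6 and the erythroid gene Alas2 on control (grey) and EKO (red) arrays, each panel with its own vertical scale. Control arrays 1 and 3 are the highest arrays for Rsad2, Isg20 and Alas2, and control array 2 lies within the range of the EKO arrays in each panel.

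Of the other induced genes, Xaf1 and Rtp4 were higher on most EKO arrays. Xaf1, an antagonist of the caspase inhibitor XIAP, read 10.19, 10.64, 9.78 and 10.16 on control and 10.63, 11.65, 10.63 and 10.52 on EKO arrays. EKO array 2 stood apart, and control array 2 lay just above the other 3 EKO arrays, so the groups overlapped. The difference was 0.66 (95% interval from 0.04 to 1.29, SE 0.27, limma adjusted p = 0.55), and 0.40 without EKO array 2. Rtp4, which aids the surface display of some receptors, read 7.30, 7.34, 7.05 and 7.42 on control and 7.34, 7.95, 7.49 and 7.50 on EKO arrays. Its difference was 0.29 (SE 0.14, limma adjusted p = 0.583). Bst2, or tetherin, holds budding virus at the cell surface. It read 10.08, 10.33, 12.54 and 10.97 on control and 11.55, 12.20, 10.36 and 12.11 on EKO arrays. Control array 3 was the highest of all, and the wide spread within both groups left a difference of 0.58 (95% interval from -0.76 to 1.92, SE 0.59, limma adjusted p = 0.76). Ifi35 differed by 0.03 and ranged from 9.61 to 9.84 over the 8 arrays.

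**Figure D4:**
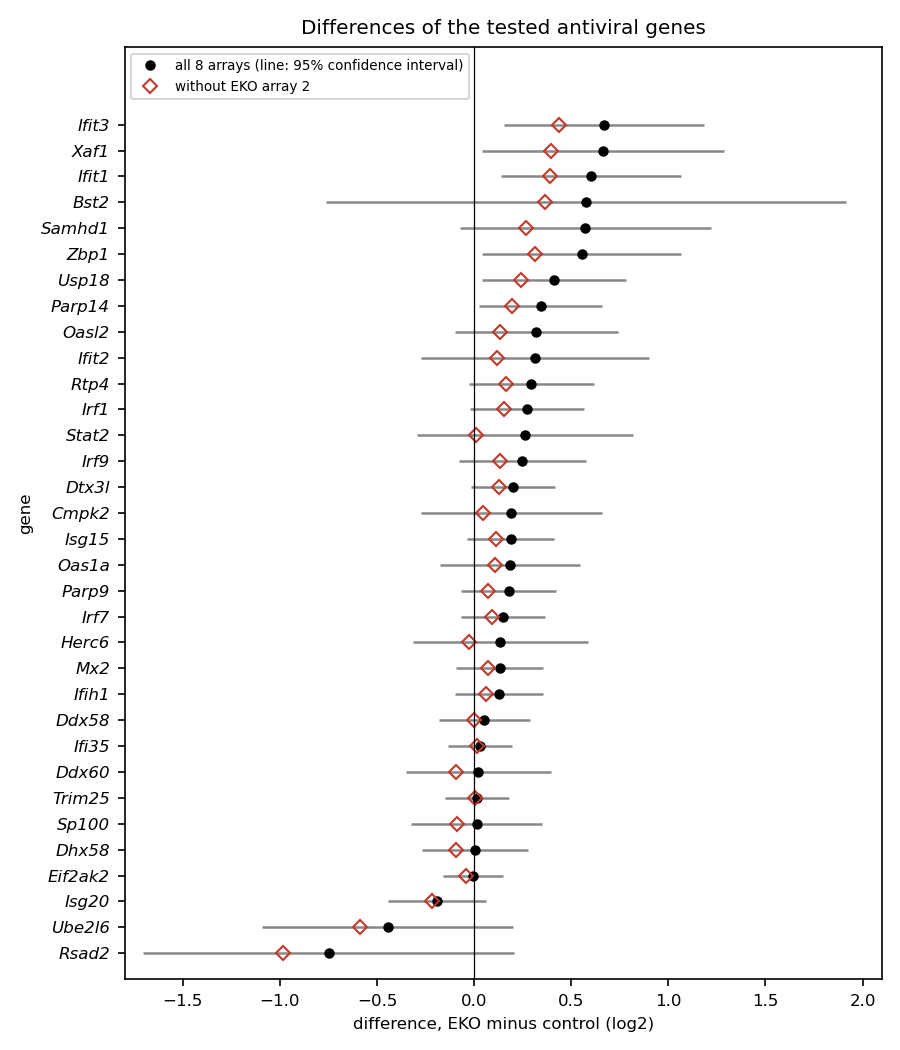
Differences between EKO and control means on the log2 scale for the 33 tested antiviral genes, in order of size. Black points and grey lines give the difference and its 95% confidence interval over all 8 arrays, and open red diamonds the difference without EKO array 2. In 6 genes the interval excludes 0, and the diamonds lie closer to 0 than the points in 26 of the 33 genes.

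The spread among EKO arrays was wider than among controls for these genes. The within-group SD was larger in EKO than in control arrays for 27 of the 33 genes (81.8%), against 55.4% of all genes tested. Its median was 0.12 in control and 0.30 in EKO arrays for the antiviral genes, and 0.13 and 0.15 for all genes tested. Without EKO array 2 the median EKO SD of the antiviral genes was 0.14.

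The antiviral genes varied together from array to array. Over the 528 pairs of tested antiviral genes the median Pearson correlation across the 8 arrays was 0.54, and 0.55 after each group's mean was subtracted. Over all pairs of tested genes it was 0.01 and 0.02. Without EKO array 2 the median was 0.15 for the antiviral pairs, or 0.12 with group means subtracted. Genes of the same 8 RNA samples share any difference between them in cell content or quality, so these correlations are a description only. Samhd1 followed the mean of the other antiviral genes most closely (r = 0.978, and 0.850 without EKO array 2), then Oasl2 (0.947 and 0.681). Rsad2 (0.037) and Isg20 (-0.105) did not follow it.

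Several guanylate-binding protein genes were among the genes outside the list with the most similar pattern over the arrays. Among 10781 tested genes with ordinary symbols, the 10 with the highest Pearson correlation with the mean of the 33 antiviral genes were Ly6e, Parp12, Gbp7, Gbp4, Ctsw, Wars, Meak7, Igtp, Gbp3 and Gbp11, at r between 0.974 and 0.989 over 8 arrays. Parp12 is a further ADP-ribosyltransferase, Gbp3, Gbp4, Gbp7 and Gbp11 encode guanylate-binding proteins, and Ctsw encodes a cathepsin of cytotoxic lymphocytes. Igtp, an immunity-related GTPase induced by interferon gamma, read 10.25, 9.53, 10.06 and 9.86 on control and 10.50, 14.07, 9.88 and 11.23 on EKO arrays. Gbp4 read 13.26, 12.85, 13.31 and 13.14 on control and 13.04, 15.78, 12.81 and 14.14 on EKO arrays. For both genes EKO array 2 stood above all other arrays by more than 1 on the log2 scale, and EKO array 4 came next. Their differences of 1.498 and 0.80 had limma adjusted p values of 0.602 and 0.669. Without EKO array 2 the 10 correlations lay between 0.808 and 0.972.

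Genes that make, receive and pass on the interferon signal had smaller median differences than the 33 antiviral genes. The exception was the 3 tested ligands (0.22), on levels near background. Of 99 further pathway genes, 90 were named by a probe set of their own, and 66 of these passed the level filter. In EKO aortas 48 of the 66 were higher (72.7%, all genes 44.9%) and 18 lower. Their median difference was 0.09, and 0.05 without EKO array 2, and 0 passed the threshold. A single one, Ifna2, had an unadjusted p under 0.05, as 8.93% of all genes tested did. Of 18 interferon ligands with a probe set 3 were tested, and those were Ifna2 (0.17), Ifnl2 (0.22) and Ifnl3 (0.26). All 8 values of Ifna2 and Ifnl2 lay below the negative control medians (7.335 to 7.446). Those of Ifnl3 did too, except on EKO array 2 (7.52). Interferon alpha genes are near-identical in sequence, so probes may read more than one of them and these values are uncertain. Ifnb1 read 5.56 to 5.83 and Ifng 4.42 to 5.08 over the 8 arrays, below the level filter.

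The counts of higher genes that follow stand beside a share of 44.9% over all genes tested. Of the 5 tested receptor genes 4 were higher, with Ifngr1 at 0.17, Ifnar2 at 0.10 and Ifngr2 at 0.03. Ifnar1 read 10.30, 10.24, 10.31 and 10.32 on control and 10.30, 10.29, 10.24 and 10.28 on EKO arrays, a difference of -0.01 (SE 0.06, limma adjusted p = 0.95). Of 11 tested signal transducers 7 were higher, and the smallest p values were those of the kinase gene Tyk2 (-0.20), Irf8 (0.23) and the phosphatase gene Ptpn6 (0.39). Of 10 tested adaptors and kinases of the sensors 6 were higher, with Mavs at -0.29, Tbk1 at 0.16 and Aim2 at -0.30. The 37 other tested interferon-stimulated genes had a median difference of 0.10, 28 of them being higher. EKO array 2 was the highest array for 20 of the 37 (54.1%), against 15.4% of all genes. Among them were the GTPase Iigp1 (1.61), Igtp (1.498) and the zinc finger gene Znfx1 (0.23), and without EKO array 2 these differed by 0.84, 0.62 and 0.14.

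Cell type markers differed between arrays too, and EKO array 2 was the highest array for some of them. The mean of the 9 neutrophil markers was 8.33 on EKO array 2, against 5.97 to 7.21 on control and 6.29 to 6.90 on the other EKO arrays. All 7 tested neutrophil markers were highest on that array, among them S100a8 (11.33 against 5.89 to 9.42 in controls) and S100a9 (10.92 against 6.55 to 9.48). The mean of the 9 T and NK cell markers was 7.09 on EKO array 2, against 5.92 to 6.45 on control and 6.13 to 6.38 on the other EKO arrays. There Gzmb, the cytotoxic protease granzyme B, read 8.69 against 5.57 to 6.68 in controls, and Nkg7 9.08 against 7.27 to 7.93. Of these 9 markers 5 passed the level filter, and 4 of the 5 were highest on EKO array 2, against 15.4% of all genes. Cd2 (6.44) lay within its control range of 5.88 to 6.71, and the untested Klrb1c (5.79) was below its control mean of 6.12. Macrophage and monocyte markers averaged 7.97 on EKO array 2, within the control range of 7.53 to 8.10, and its members went both ways. Lyz2 (9.33) and Csf1r (6.70) were below their control means there, while Ly6c2 (15.97), Ccr2 (7.15) and the untested Fcgr1 (5.73) were highest on that array of all 8. Markers of plasmacytoid dendritic cells, a main source of type I interferon, averaged 7.27 on EKO array 2 and 7.86 on EKO array 4. They averaged 6.63 to 7.40 on control arrays, so EKO array 2 lay within the control range. Klk1 read 13.88 on EKO array 4 and 12.56 on control array 1, but 9.60 to 10.66 on the others. It thus raised the list mean on EKO array 4 and control array 1, and the mean without Klk1 was not computed. All 4 tested markers of this list had a higher mean in EKO aortas, with a median difference of 0.39 (0.40 without EKO array 2), and 0 passed the threshold. One of them, Cox6a2, did not overlap between groups (6.16, 5.89, 5.85 and 6.19 on control and 6.46, 6.34, 6.22 and 6.20 on EKO arrays, limma adjusted p = 0.539). Such separation, higher in EKO, held for 3.41% of all genes tested. All 8 values of Cox6a2 lay below the negative control medians (7.335 to 7.446). Siglech was highest on control array 4 (8.52), above every EKO array. The part of plasmacytoid dendritic cells in the antiviral differences was not tested. Endothelial markers averaged 12.89 on EKO array 2 and 12.92 to 13.16 on the others. Without Emcn, which read 8.18 there, the mean was 13.42 on EKO array 2, inside the range of 13.31 to 13.60 on the others. The median difference of the antiviral genes was 0.10 with the neutrophil marker mean as a covariate, and 23 of the 33 were above 0 (all genes 46.4%). Without EKO array 2 and with no covariate it was 0.09, and 24 were above 0. The covariate stood out on EKO array 2, so this fit cannot tell neutrophils from anything else particular to that array. The part of neutrophils, T cells and NK cells was not tested.

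EKO array 2 also had the lowest signal contrast, the median of the array's positive control probe sets minus that of its negative ones, at 3.19 against 3.34 to 3.59 on the other arrays. With that contrast as a covariate the median difference was 0.11, and 0 antiviral genes had an unadjusted p under 0.05 (all genes 5.47%). The contrast was lowest on EKO array 2, so this fit cannot tell it from anything else particular to that array. Of the remaining marker lists, EKO array 2 was lowest for adipocytes (8.14, range of the others 8.61 to 11.26) and fibroblasts (8.52, others 8.71 to 9.74). Smooth muscle markers (7.96, others 7.58 to 8.41), B cell markers (6.08, others 5.91 to 6.57) and platelet and red cell markers (10.65, others 8.91 to 11.24) lay inside the range.

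**Figure D5:**
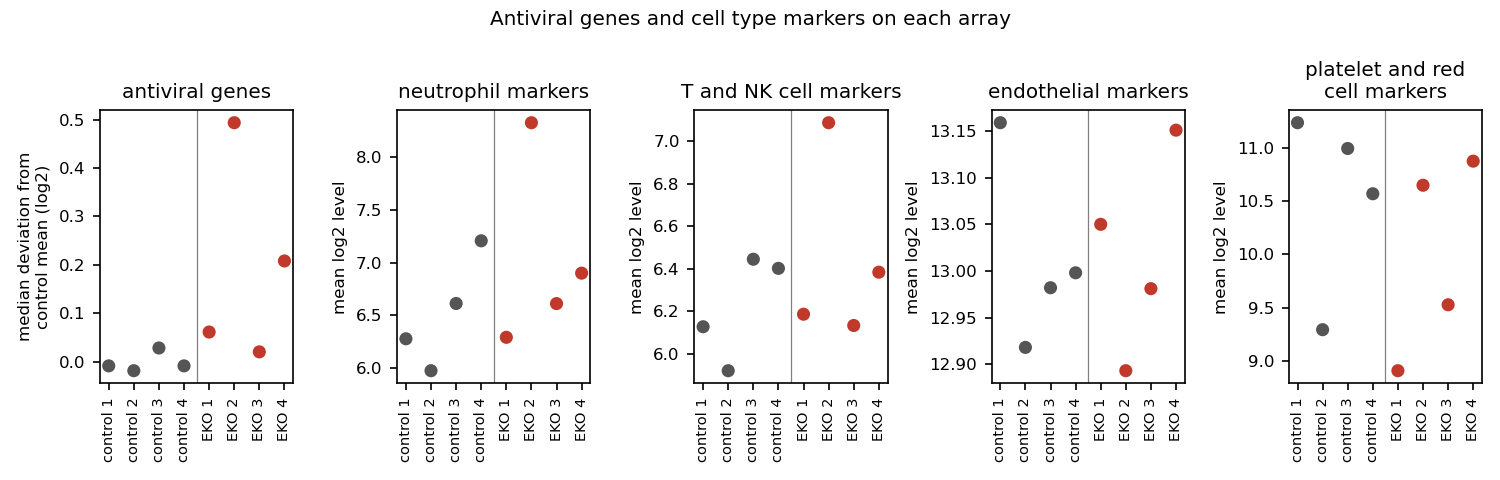
The left panel gives, for each array, the median over the 33 antiviral genes of the log2 level minus the gene's control mean, and the other panels the mean log2 level of 4 marker lists, each on its own scale. EKO array 2 (red) is highest for the antiviral genes (0.49), neutrophil markers (8.33) and T and NK cell markers (7.09). Its endothelial mean (12.89) is the lowest, but not when Emcn is left out (13.42).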

How the data were processed

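Each array, an Affymetrix Mouse Transcriptome Array 1.0, read the RNA of 1 aorta, from 5 ng of total RNA per the labels' protocols. The authors deposited log2 expression values, which Expression Console computed by SST-RMA, per the labels. The software version and genome build are not given in the sources used here. The labels name no array batch, and the number of arrays limits the precision.

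Gene names came from the platform annotation, with 1135 symbols updated through RefSeq (GRCm38.p6). For a gene with several probe sets the one with the highest mean was used. Genes with a mean above 6.14, the median of 72688 probe sets, were fitted in limma (version 3.58.1, R 4.3.3) by lmFit and eBayes with no covariate, and p-values were adjusted by Benjamini-Hochberg over all 16232 genes (threshold 0.05). The script was tested on simulated data.

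The genes and lists were chosen with earlier results of these data known, so lists are described by counts and medians without a test. By rule, values on every array are given for the 12 genes with the smallest p and for Irf7, Irf9, Stat2, Isg15 and Bst2, and by range for untested genes. Also named are up to 3 genes of each pathway list by p, Ifnar1, the 10 most similar genes, and up to 2 markers of a list with the widest range. Values on every array are also given outside this rule for Oasl2, Ube2l6, Isg20, Igtp, Gbp4 and Cox6a2. Ifnb1, Ifng, Ly6c2, Ccr2, Fcgr1, Siglech, Cd2, Klrb1c, Pecam1, Cdh5, Alas2 and the targeted Mef2c were likewise named outside it. Promoters printed are those of up to 4 genes with the motif and 1 without, by p. Alternatives covered the level filter, probe set choice, scaling, variance model, array weights, covariates, the replicate number as a block and leaving out each array.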

Additional observations from a re-analysis of the deposited data

Results flagged for a closer look

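In 3 of 66 groups of 4 arrays checked (33 antiviral genes in each group) a single array stood apart from the other 3, by a gap whose share of the group's range passed Dixon's 95% critical value for 4 samples. Chance gives about 1 in 20 such groups, and the share here was 4.55%. All 3 were EKO array 2, on the high side. It read 9.35 for Ifit2 against 8.50 to 8.62 on the other EKO arrays, 7.66 for Zbp1 against 6.61 to 6.77, and 11.65 for Xaf1 against 10.52 to 10.63.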

How the results depend on the processing

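No antiviral gene passed an adjusted p of 0.05 in limma under any of the 20 alternatives run, and none of the 314 values of the 16 genes followed across them changed sign, although Irf1 was 0.009 with the mean of its probe sets. Smallest adjusted p values over these alternatives lay between 0.273 (without EKO array 1) and 0.886 (signal contrast as a covariate). The adjusted p of Ifit3 ranged from 0.29 to 0.886 and that of Usp18 from 0.322 to 0.891.

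With each array left out in turn the median difference ranged from 0.09 (without EKO array 2) to 0.24. The number of higher genes ranged from 24 to 30, where 42.3% to 47.8% of all genes were higher. The median pair correlation ranged from 0.146 (without EKO array 2) to 0.616. The count at an unadjusted p under 0.05 ranged from 2 (without control array 4, all genes 6.52%) to 9 (without EKO array 1, all genes 12.3%), and the count without overlap from 5 to 8 (without EKO array 1). With fewer arrays groups separate more easily. Of all genes, 3.41% separated, higher in EKO, over all arrays and 4.32% without EKO array 2, and the share was not computed for the other arrays. Without control array 2, 3 of the 7 genes at that p were lower. For Bst2 the difference ranged from 0.28 to 1.10 and for Stat2 from 0.01 to 0.42.

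Filtering at the 75th percentile of level kept 23 antiviral genes, of which 19 were higher (all genes 36.8%), 3 had an unadjusted p under 0.05 (all genes 9.18%) and 2 did not overlap (share of all genes not computed). At that p, 2 genes were left without moderation of the variance (all genes 9.05%) and 0 once signal contrast entered as a covariate (all genes 5.47%). The cause was not tested. The labels do not say whether the replicate numbers pair the arrays. Deviations from group means of same-numbered arrays correlated at -0.16, 0.21, -0.24 and 0.13. Those of arrays with unlike numbers correlated at -0.403 to 0.463, so these values cannot decide whether pairs exist. With the replicate block the counts were again 29 higher genes (all genes 44.9%), 6 at an unadjusted p under 0.05 (all genes 7.76%) and 0 called, with a smallest adjusted p of 0.586. Scalings put the median over all genes at -0.02 (quantile) and 0.02 (centred).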
